A study of Homo sapiens with 13 samples.

Results

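In MDA-MB-231 cells, a human breast cancer line, the chromatin around MYOF on chromosome 10 held 15 separate regions bound by YAP, TAZ, TEAD4 or JUN, and 10 of them held all 4 proteins. The window examined ran from 95016186 to 95342074 (hg19, 325.9 kb) and took in the gene (95066186 to 95242074, minus strand), 50 kb beyond its end and 100 kb upstream of its start. A peak belonged to the window when its summit, the point of highest signal, lay inside it. This gave 48 of the 50467 deposited peaks, and 15 of the 28100 regions formed when overlapping peaks of all lists were merged. The window was chosen by the positions and overlaps of these same peaks, which are dense there, so its counts and strengths are given as a description with no test.

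The study used chromatin immunoprecipitation and sequencing (ChIP-seq) with antibodies to YAP, TAZ (the WWTR1 protein), TEAD4 and JUN, with 2 libraries for each protein. Controls were 2 rabbit IgG and 3 mouse IgG libraries, 13 libraries in all, from 1 cell line grown without any treatment named in the labels. Each protein has 1 deposited list that serves both of its replicates, so the values carry no replicate spread, and read depth is unknown here. YAP and TAZ were set against rabbit IgG, and TEAD4 and JUN against mouse IgG; names of the raw files also place YAP and TAZ on another sequencing run than TEAD4 and JUN, so run, IgG and protein cannot be told apart in that contrast.

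Myoferlin, the product of MYOF, is a ferlin: a membrane-anchored protein with several calcium-binding C2 domains that acts in membrane fusion, repair of the plasma membrane and traffic of surface receptors. It has been studied in breast cancer cells for its part in migration and invasion. YAP and TAZ are the coactivators that the Hippo kinases hold in check, and they reach DNA through TEAD proteins, while JUN pairs with other AP-1 proteins to bind DNA; sites shared by these proteins often lie away from gene starts. In the RefSeq gene order (GRCh38.p14), the next protein-coding genes on the upstream side of MYOF are CEP55, which works in the last step of cell division, and FFAR4, a receptor for long-chain fatty acids. The next entries beyond the MYOF end are the pseudogenes RPL17P34 and XRCC6P1. No hg19 annotation was used, so whether these neighbours lie inside the window was not determined. Binding near a gene does not say which gene a site acts on.

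Regions are named here by the distance of their middle summit from the gene start, counted along transcription, so that +23.4 kb lies inside the gene and −96.9 kb lies upstream. Of the 15 regions, 10 lay in the gene, 4 upstream and 1 beyond the end; those with all 4 proteins numbered 7, 2 and 1 in these places. All 4 proteins were present at 66.7% of the regions (Clopper-Pearson 95% interval 38.4 to 88.2, counting error only), against 15.2% of all merged regions of the genome. The remaining 5 were 3 regions of JUN alone (58% of regions in the genome), 1 of YAP with TAZ (1.09%) and 1 of TAZ, TEAD4 and JUN (2.04%). Read by protein, 10 of 11 YAP peaks lay in a region of all 4 (56.6% over the whole YAP list), 10 of 12 TAZ peaks (44.6%), 10 of 11 TEAD4 peaks (52%) and 10 of 14 JUN peaks (17.5%). These shares describe a window chosen for such regions. The interval treats its neighbouring regions as independent, so it is no test against the genome share.

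**Figure D1:**
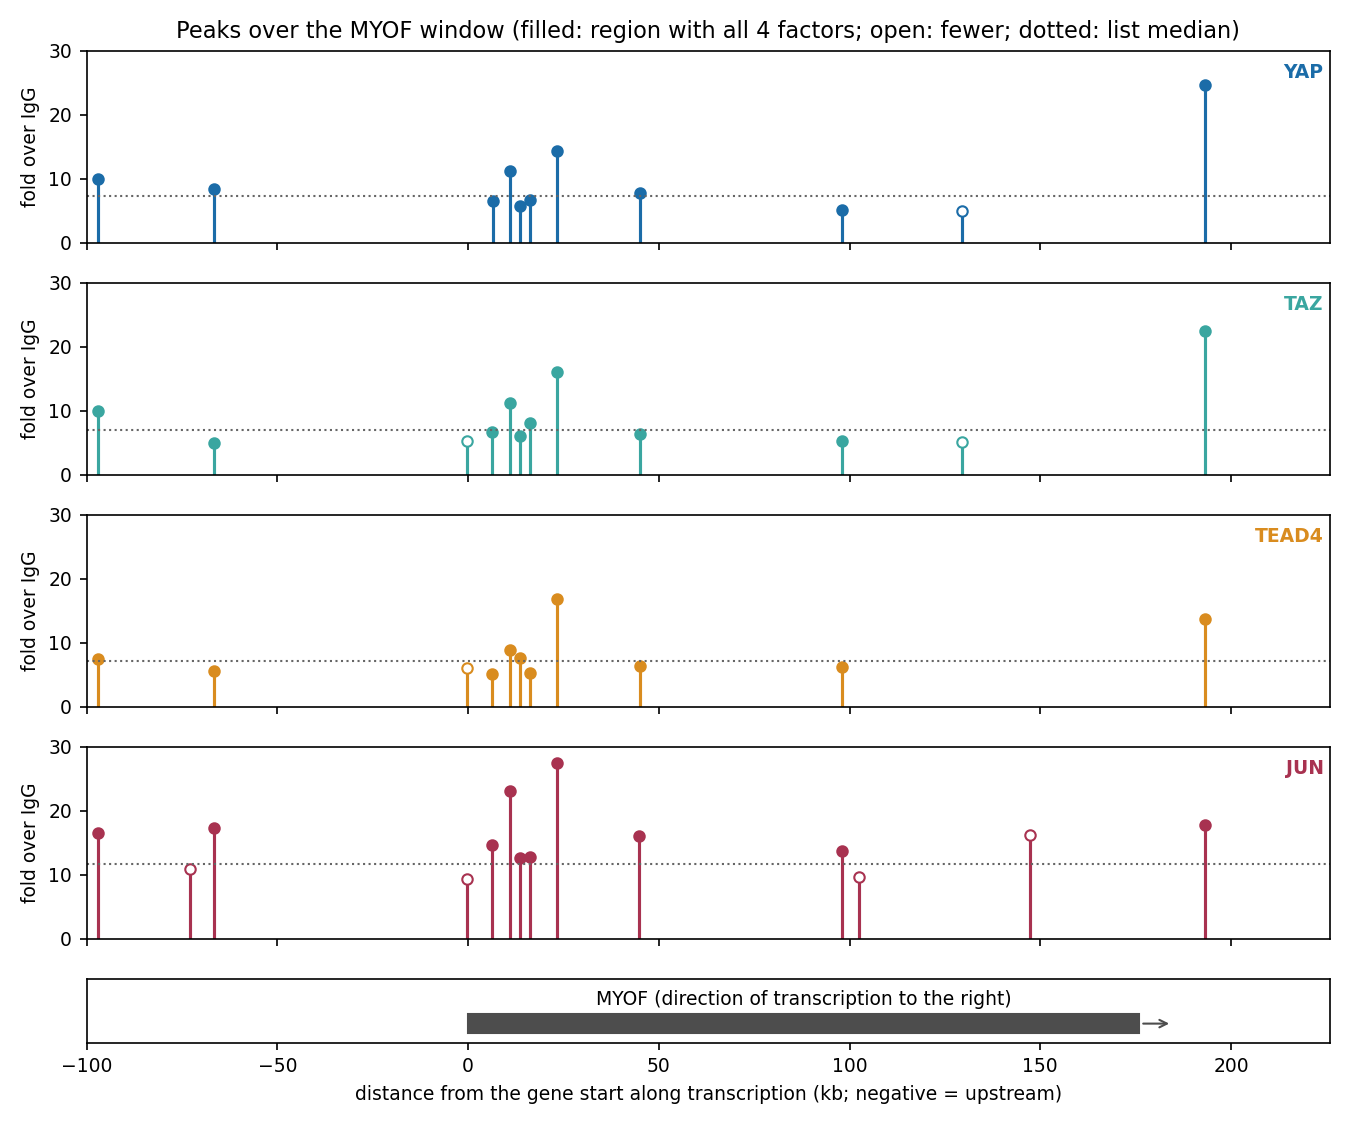
Fold enrichment over IgG of each peak (vertical axis, 0 to 30) against the distance of its summit from the MYOF start in kb, with 1 panel per protein. Filled points are peaks in the 10 regions with all 4 proteins, open points are other peaks, dotted lines are the median of each whole list and the grey bar is the gene. Peaks crowd into the first 25 kb of the gene, and the tallest YAP and TAZ peaks stand beyond its end at +193.2 kb.

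The density of peaks was 33.8 per Mb for YAP, against 3.27 over chromosome 10 and 2.64 over the span of all chromosomes. TAZ had 36.8 peaks per Mb (4.06 and 3.35), TEAD4 had 33.8 (3.21 and 2.88) and JUN had 43.0 (10.2 and 8.40). JUN, the longest list, had the smallest excess, 5.11 times its density over all chromosomes, against 12.8 for YAP, 11.0 for TAZ and 11.7 for TEAD4. When the genome was divided into 9300 adjoining windows of the same length, 6694 held no region with all 4 proteins, and windows that held any had a median of 1. 1 window, on chromosome 11 (12057894 to 12383782), held as many as the 10 found here. These windows were laid end to end, whereas the MYOF window was set around the gene and chosen for its density. The count of 1 is therefore no measure of rarity. A stretch of this length centred on the densest 100 kb, also on chromosome 11, held 11. With the stronger 50% of each list by p, 4 of 11 regions around MYOF held all 4 proteins and 25 windows held as many.

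**Figure D2:**
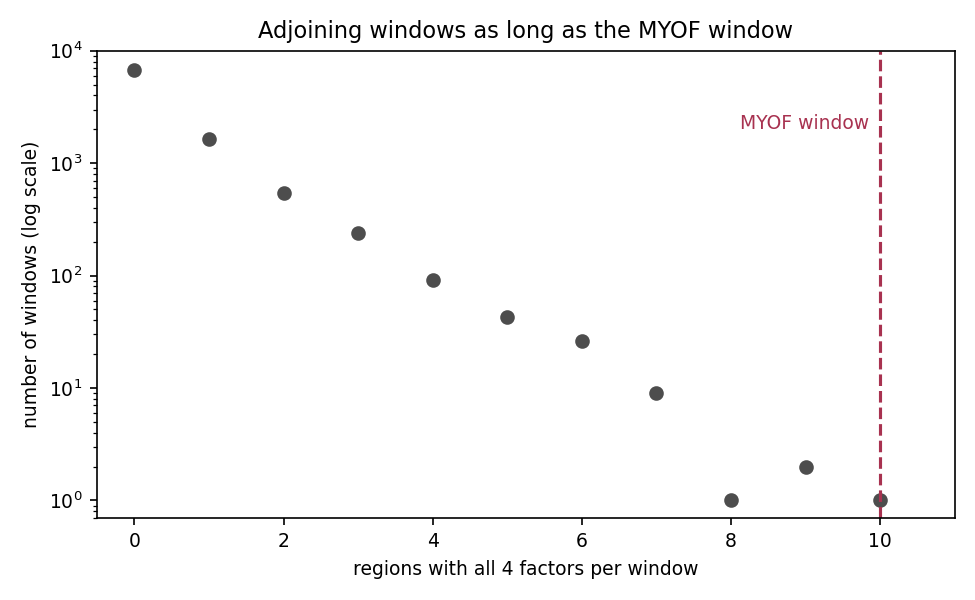
Number of adjoining windows (log scale) by how many regions with all 4 proteins they hold; each window is 325.9 kb long. The dashed line marks the 10 regions of the MYOF window. Of the 9300 windows, which were laid end to end and not placed around dense sites, 1 reached this number.

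The strength of each peak is given as the authors' fold enrichment over IgG and, since levels of different antibodies are not comparable, as its place in its own list: the rank by enrichment as a percentage of the list, so that a low figure is a strong peak. Places ranged from the strongest percent to near the bottom in the YAP and TAZ lists. YAP ran from 0.558% to 94.8% with a median of 44.0%, and TAZ from 0.847% to 88.8% with a median of 57.0%. TEAD4 ran from 3.47% to 89.7% (median 62.2%). JUN ran from 0.896% to 75.7% (median 24.4%). Within the regions of all 4 proteins, the JUN peak was above the median of its list in 10 of 10 (69.8% of such regions in the genome). The YAP peak was above its list median in 6 of 10 (62.7%), TAZ in 5 of 10 (72.8%) and TEAD4 in 5 of 10 (64.3%). JUN held the strongest place of the 4 proteins in 8 of these 10 regions (40.3% in the genome), the exceptions being +16.3 kb, where TAZ did, and +193.2 kb, where JUN held the weakest. Places are shares of lists of unequal length, 24554 peaks for JUN against 7709 to 9798 for the others.

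**Figure D3:**
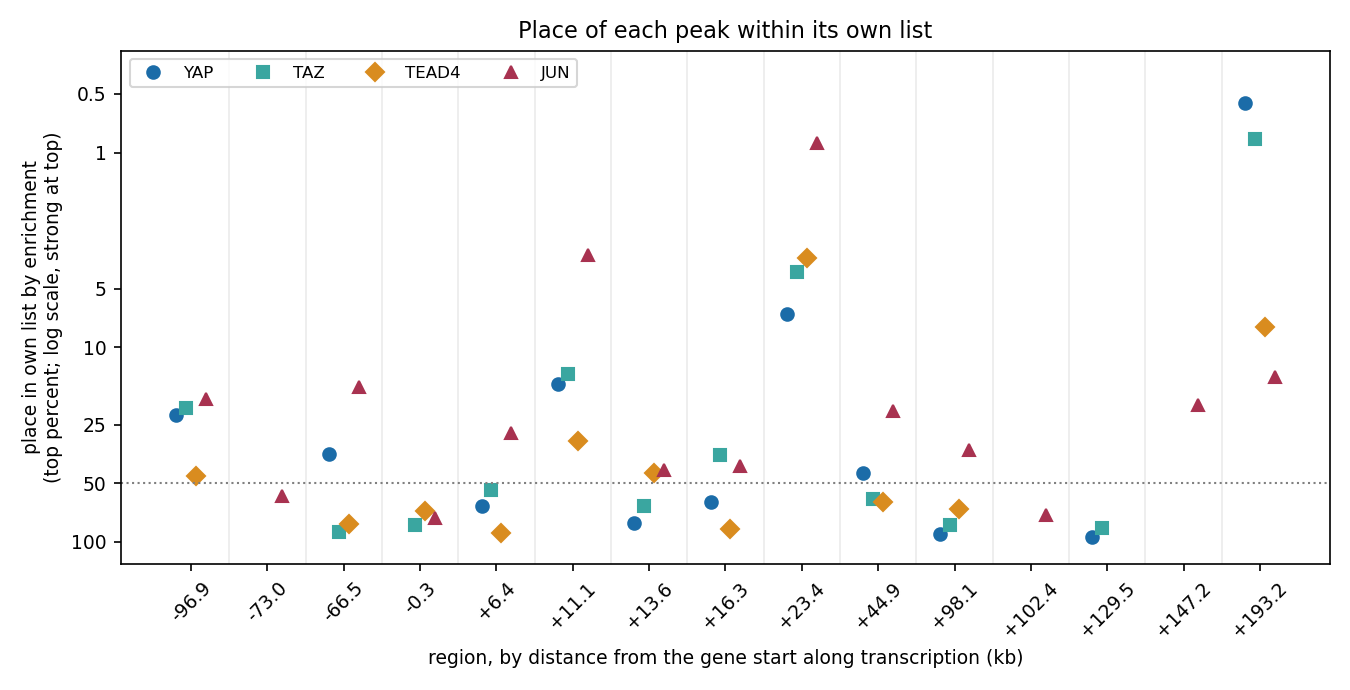
Place of each peak in its own list (vertical axis, top percent on a log scale with strong peaks at the top) for the 15 regions, ordered from upstream to beyond the gene end. The regions at +23.4 and +193.2 kb stand above the others for YAP, TAZ and TEAD4; the dotted line marks the middle of each list.

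A pair of regions led the window. The strongest for YAP and TAZ lay 17.3 kb beyond the end of the gene, at +193.2 kb (95048433 to 95049230). Its YAP enrichment was 24.7-fold, rank 43 of 7709 peaks, and its TAZ enrichment was 22.5-fold, rank 83 of 9798. TEAD4 there was at 13.8-fold (top 7.84%) and JUN at 17.8-fold (top 14.2%). By enrichment, the strongest for TEAD4 and JUN lay inside the gene at +23.4 kb (95218314 to 95219240). TEAD4 was at 16.8-fold there, rank 292 of 8406, and JUN at 27.5-fold, rank 220 of 24554. Ranked by p, however, TEAD4 was stronger at +193.2 kb (rank 244) than at +23.4 kb (rank 544). At +23.4 kb YAP was at 14.3-fold (top 6.78%) and TAZ at 16.1-fold (top 4.09%), each the second strongest of the window. The +23.4 kb region was the only one of the window with all 4 proteins in the top 10% of their lists. By construction that part is 9.99% of the YAP, TAZ and TEAD4 lists and 10% of the JUN list. In the YAP, TAZ, TEAD4 and JUN lists alike, 2 peaks of the window reached that part; for JUN the other was at +11.1 kb.

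The third region in the order of YAP, TAZ and TEAD4 lay at +11.1 kb (95230428 to 95231388). It had 11.3-fold enrichment for YAP, 11.3-fold for TAZ, 8.95-fold for TEAD4 and 23.0-fold for JUN, and the JUN value placed it in the top 3.37% of its list. The farthest upstream region, at −96.9 kb (95338585 to 95339350), was next for YAP at 9.97-fold and TAZ at 9.96-fold. It was the fifth for TEAD4, at 7.52-fold, and for JUN, at 16.6-fold. YAP and TAZ held nearly the same place there, 22.3% and 20.5%.

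The other upstream region with all 4 proteins, at −66.5 kb (95308065 to 95308875), was the least even of the window in YAP and TAZ. YAP was at 8.45-fold (top 35.2%) and TAZ at 5.02-fold, the weakest TAZ peak of the window (top 88.8%). The difference of 53.6 percentage points was matched or exceeded at 24 of the 4284 regions with all 4 proteins (0.560%), where the median difference was 7.48 points. TEAD4 was also low there, 5.62-fold, while JUN was at 17.2-fold (top 16.0%). This region was singled out after its values were seen. Over the 10 regions the median difference in place between YAP and TAZ was 9.92 points.

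The first 25 kb of MYOF and the region just upstream of its start are described as a group. In the 24.2 kb from 95218314 to 95242562, which is 7.44% of the window, lay 6 of the 15 regions and 23 of the 48 peaks. Neighbours were 1.28 to 6.24 kb apart, and 5 of the 6 held all 4 proteins. The stretch is bounded by the outer edges of these regions, so its small share of the window is in part by construction. Apart from the +23.4 and +11.1 kb regions already described, the YAP peaks of the group lay below the median enrichment of their list. At +6.4 kb (95235291 to 95236073) YAP was at 6.56-fold, TAZ at 6.72-fold, TEAD4 at 5.14-fold and JUN at 14.7-fold. The TEAD4 peak there was the weakest of the window by enrichment, but by p the weakest lay at −66.5 kb. At +13.6 kb (95227955 to 95228874) TEAD4, at 7.64-fold, stood above its list median of 7.20, while YAP at 5.82-fold and TAZ at 6.13-fold stood below theirs of 7.35 and 6.96. The region at +16.3 kb (95225485 to 95226675) showed the opposite for TAZ and TEAD4 but not for YAP. TAZ at 8.07-fold was above its median, TEAD4 at 5.38-fold was low in its list (top 85.5%), and YAP at 6.68-fold was again below its median. Ranked by p, however, the YAP peak at +16.3 kb was in the top 43.1% of its list. JUN was at 12.6-fold at +13.6 kb and 12.8-fold at +16.3 kb.

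**Figure D4:**
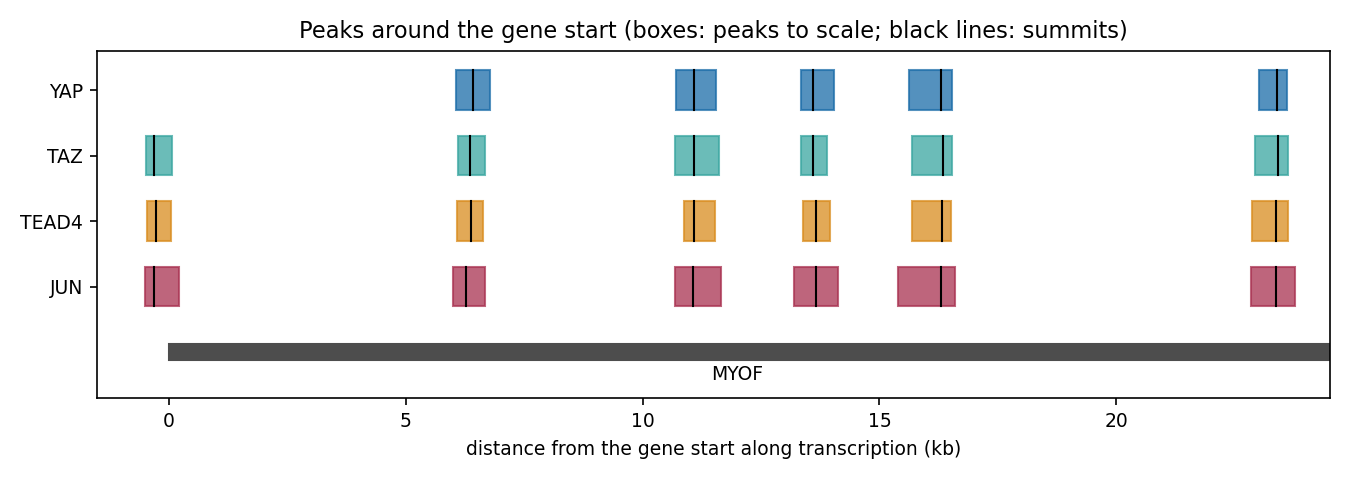
Peaks of the 4 lists around the start of MYOF, drawn to scale against the distance from the start in kb; boxes are peaks and black lines are summits. Of the 6 regions, 5 hold all 4 proteins, and the one over the gene start has TAZ, TEAD4 and JUN peaks with no listed YAP peak.

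The gene start itself was covered by TAZ, TEAD4 and JUN peaks but by no listed YAP peak (−0.3 kb, 95241846 to 95242562). It was a weak site: TAZ was at 5.36-fold (top 82.3%), TEAD4 at 6.11-fold (top 69.1%) and JUN at 9.38-fold, the weakest JUN peak of the window (top 75.7%). The summits lay 311 bp (TAZ), 263 bp (TEAD4) and 299 bp (JUN) upstream of the start, and the peaks reached 83, 53 and 228 bp into the gene. The 250 bases before the RefSeq start of MYOF (GRCh38.p14, chr10:93482335-93482584, minus strand) are shown because these 3 peaks overlie the gene start; they are given 5′ to 3′ and end at the base before the start.
MYOF, bases before the start: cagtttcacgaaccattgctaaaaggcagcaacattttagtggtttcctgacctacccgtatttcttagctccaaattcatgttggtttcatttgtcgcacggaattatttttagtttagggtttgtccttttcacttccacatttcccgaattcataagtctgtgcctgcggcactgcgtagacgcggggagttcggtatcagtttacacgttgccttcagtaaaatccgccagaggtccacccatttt
Nothing is in capitals because neither motif searched, on both strands, occurs in it: GGAATG, the core of the TEAD motif, is found in 11.9% of 27305 RefSeq promoter stretches of this length, and TGANTCA, the AP-1 motif with any base at its middle, in 6.60%. Counted from the hg19 start, all 3 summits lay beyond these 250 bases, so the motif search does not cover the sequence at the summits. The RefSeq gene on GRCh38.p14 is 17 bp longer than the hg19 gene from which the summit distances were counted. A shift of the start by up to 17 bp could bring only the TEAD4 summit, at 263 bp, to the far end of the 250 bases. The starts were not aligned between builds, so a larger shift was not checked.

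Deeper in the gene, regions with all 4 proteins were farther apart. At +44.9 kb (95196354 to 95198134) YAP was at 7.75-fold, TAZ at 6.39-fold, TEAD4 at 6.43-fold and JUN at 16.0-fold; the JUN peak there was the widest of the window, 1781 bp against a list median of 730 bp. At +98.1 kb (95143077 to 95144166) JUN was at 13.8-fold (top 33.6%), while YAP at 5.23-fold (top 91.1%), TAZ at 5.36-fold and TEAD4 at 6.18-fold were weak. Neighbouring regions with all 4 proteins were 1.28 to 93.8 kb apart in the window (median 20.2 kb), against a median of 253 kb over the genome. Gaps inside a window chosen for its density are short by construction. The gaps to the next such regions outside, 363.9 and 70.7 kb from its edges, were not counted.

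The last 4 regions lacked 2 or more proteins. JUN alone was listed at −73.0 kb (95314437 to 95315361, 10.9-fold), +102.4 kb (95139261 to 95139910, 9.64-fold) and +147.2 kb (95094561 to 95095188, 16.3-fold). The first and second of these were below the JUN list median of 11.7, but the +147.2 kb peak (top 19.9%) exceeded the JUN peak of 5 of the 10 regions with all 4 proteins. YAP with TAZ was found at +129.5 kb (95112080 to 95112839), at 4.98-fold for YAP and 5.22-fold for TAZ. This YAP peak was the weakest of the window by enrichment (top 94.8%), but by p the weakest lay at +98.1 kb.

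An unlisted protein is not an absent one, since the lists hold peaks past a threshold. The JUN list stopped at a −log10 p of 54.4, higher than the YAP (24.3), TAZ (22.0) and TEAD4 (24.7) lists. Peak numbers in the names ascend along chromosome 10, and gaps between them may be candidates left out of the list. If they are, 2 unlisted YAP candidates lay somewhere in the 73.0 kb between the listed YAP peaks on either side of the gene start. Likewise 2 TEAD4 and 2 JUN candidates lay between the peaks on either side of the +129.5 kb region, intervals of 95 kb for TEAD4 and 44.8 kb for JUN. The +102.4 and +147.2 kb regions lie in the same TEAD4 interval, so these same 2 TEAD4 numbers serve all of them. At the JUN peak of +102.4 kb there was no unlisted YAP or TAZ number between the neighbours. At +147.2 kb there was none for YAP and 1 for TAZ, and at −73.0 kb none for YAP or TEAD4 and 3 for TAZ. From the first to the last listed peak of the window, 11 of 16 YAP numbers were listed, 12 of 27 for TAZ, 11 of 14 for TEAD4 and 14 of 41 for JUN. The peak names of the TAZ list carry a tag naming YAP and TAZ together, and those of the JUN list carry a tag beginning with Rep. The sources used here give the meaning of neither tag, nor what they say about which libraries were pooled.

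Within the 10 regions of all 4 proteins the summits lay close together. The distance from the first to the last of the 4 summits ran from 14 bp at +98.1 kb to 137 bp at +6.4 kb, with a median of 38 bp, against 48 bp over the 4284 such regions of the genome. It was at most 50 bp in 6 of 10 (52.6% in the genome). Summits of YAP and TAZ were a median of 15 bp apart, against 17 bp between YAP and TEAD4, 13.5 bp between TAZ and TEAD4 and 18 bp between TEAD4 and JUN; from JUN to YAP it was 34 bp. The corresponding medians over the genome were 16, 17, 17, 30 and 27 bp.

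The regions with spans over 100 bp, +6.4 kb and +193.2 kb, had the JUN summit set apart. At +193.2 kb the YAP, TAZ and TEAD4 summits fell within 12 bp, and the JUN summit lay 100 bp from the nearest of them. At +6.4 kb the others spanned 69 bp and JUN lay 68 bp from the nearest. At +13.6 kb, where the span was 70 bp, YAP and TAZ summits were 4 bp apart and TEAD4 and JUN 10 bp apart, with 70 bp between YAP and TEAD4. The JUN summit fell outside the span of the other 3 in 6 of 10 regions (64.1% in the genome).

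**Figure D5:**
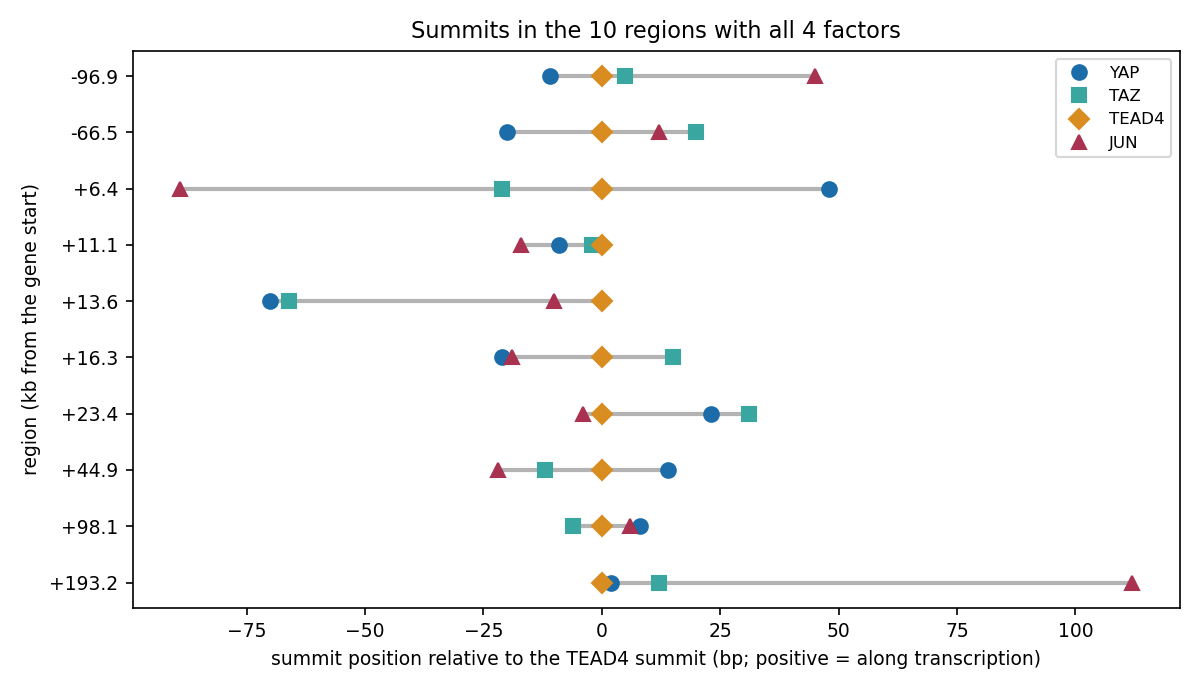
Position of each summit relative to the TEAD4 summit in bp (positive along transcription) in the 10 regions with all 4 proteins; grey lines join the first and last summit. The JUN summit stands apart at +6.4 and +193.2 kb, and YAP with TAZ stands apart from TEAD4 and JUN at +13.6 kb.

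The regions just outside the window differed between its edges. The nearest listed region beyond its gene-end edge, 20.4 kb outside, held YAP at 6.60-fold and TEAD4 at 7.99-fold alone (94995541 to 94995946), and the next region with all 4 proteins on that side was 363.9 kb from the edge. On the upstream side a region with all 4 proteins lay 70.7 kb outside (95412548 to 95413116), with 7.58-fold for YAP, 8.07-fold for TAZ, 6.63-fold for TEAD4 and 17.2-fold for JUN.

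For comparison, the 100-kb window with the most regions of all 4 proteins in the genome lay on chromosome 11 (12000001 to 12100000) and held 7. A stretch of the same length as the MYOF window around it (11887056 to 12212944) held 57 peaks in 20 regions, 11 of them with all 4 proteins. Its YAP peaks had a median place of 81.4% (12 peaks) against 44.0% around MYOF (11 peaks), and its strongest YAP peak was at 13.8-fold against 24.7-fold. The median places were 55.7% and 57.0% for TAZ, 64.1% and 62.2% for TEAD4, and 39.0% and 24.4% for JUN. Both stretches were chosen for their density, and the differences were not tested.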

How the data were processed

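The submitters' processing notes name build hg19, the aligner Bowtie (0.12.7), the peak caller MACS2 (2.0.10), SAMtools and CASAVA. Peaks were selected by IDR, which keeps those that recur between replicates, with pooled IgG libraries as control, per the labels; the list names carry the value 0.01. Each deposited peak has a position, a summit, a p-value on the −log10 scale and a ratio, the fold enrichment over IgG; these are the authors' values and were used to describe and rank peaks within a list. Depth is unknown here, and the lists carry no values per replicate.

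Groups follow sample titles and antibodies. Peaks overlapping by at least 1 bp were merged over the whole genome with Python 3.11.15, and the merging was tested on simulated data. A region counted for the proteins whose summits lay in the window. The window, and the lists compared, were chosen with earlier results of these data known. All 15 regions are named; other regions were named for their place beside the window or as the densest of the genome. Alternatives were narrowed peaks (200 bp), a reciprocal overlap of 50%, equal lists of 7709 peaks, the stronger 50% of each list, the gene alone, ranks by p, any overlap with the window and shifted windows. No hg19 genome or annotation was used, so exons, introns, summit sequences and other genes were not analysed here.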

Additional observations from a re-analysis of the deposited data

How the results depend on the processing

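Of 43 alternative values for 12 results, 33 stayed within 1.5 times of a reported count or within the 95% interval of a reported share or median. The intervals of the median places are wide (6.78 to 91.1% for YAP, 13.7 to 82.3% for TAZ, 7.84 to 85.5% for TEAD4), so staying inside them says little. The YAP median moved from 44.0% to 63.8% in the gene alone, and the TAZ median from 57.0% to 41.9% when ranked by p. The interval of the share of regions with all 4 proteins is wide too (38.4 to 88.2%). With a reciprocal overlap of 50% that share fell from 66.7% to 47.1% (8 of 17 regions) and still stayed inside it. With the stronger 50% of each list, the regions with all 4 proteins numbered 4 (36.4% of 11), 25 windows of the genome held as many, and the peaks numbered 7 for YAP, 7 for TAZ and 5 for TEAD4; that setting keeps fewer peaks by construction. Within the gene alone there were 7 TEAD4 and 9 JUN peaks, a shorter stretch. With narrowed peaks, 0 windows of the genome held as many regions as the MYOF window, and with lists of equal length likewise 0. Leaving out a replicate was not run, because each protein has 1 list. No paired analysis was possible because both replicates of a protein share a single list. What depth limits is unknown here.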

Other observations

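Across the 10 regions with all 4 proteins, YAP enrichment followed JUN enrichment with a Spearman rho of 0.89, against 0.15 over the 4284 such regions of the genome. This pair is given first because its rho was the highest of all pairs of proteins. Without the 2 regions of highest YAP it was 0.86 over 8. For TAZ and JUN rho was 0.60 (0.17 over the genome) and for TEAD4 and JUN 0.61 (0.11), falling to 0.29 and 0.26 without the 2 regions of highest TAZ or TEAD4. For YAP and TAZ it was 0.78 (0.90 over the genome), and 0.57 without the 2 regions of highest YAP. For YAP and TEAD4 rho was 0.67 (0.61 over the genome) and for TAZ and TEAD4 0.64 (0.59). Both fell, to 0.38 and 0.31, without the 2 regions of highest YAP or TAZ. These are descriptions of a few neighbouring sites that share the libraries of each protein and, for YAP with TAZ and in part for TEAD4 with JUN, the IgG control, and no test was made.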
